A study of Mus musculus with 4 samples.

Results

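Lipoprotein lipase (LPL), its anchor GPIHBP1, 4 angiopoietin-like proteins and 2 lipid receptors were followed in kidney RNA of mice given immune complexes or saline. The 8 genes, Lpl, Gpihbp1, Angptl4, Cd36, Vldlr, Angptl2, Angptl6 and Angptl7, were taken by name from the 38924 genes listed, and all 8 had enough reads to be fitted. They were selected on their read counts in these libraries, so differences between groups are given as descriptions and support nothing. The animals were female CB-17 SCID mice (Balb/c background), which lack functional B and T cells; their age was not stated in the labels. Each of 2 immune complex samples came from mice injected through the tail vein with IgG-Gd-IgA1 complexes, in which IgG autoantibody is bound to IgA1 that lacks galactose, the autoantigen in IgA nephropathy. Each of 2 saline samples came from mice injected with saline on the same schedule of 3 doses within 7 days, with tissue taken 1 day after the last. The model is passive: complexes are given, and the animal makes no such antibody itself. The labels do not say that each sample came from its own animal, so the spread between samples may be partly technical.

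Triglyceride-rich lipoproteins are broken down at the capillary wall by LPL, which parenchymal cells secrete and the endothelial protein GPIHBP1 carries to the vessel lumen. ANGPTL4, a secreted protein induced by fasting and by fatty acid receptors of the PPAR family, inactivates LPL. Fatty acids released by LPL can enter cells through CD36, and remnant lipoproteins can bind the VLDL receptor. ANGPTL2, ANGPTL6 and ANGPTL7 share the angiopoietin-like fold but are not known chiefly as LPL inhibitors. Adipocytes are a rich source of LPL, CD36 and ANGPTL4. Adipose tissue attached to a kidney piece could add reads of these genes, and its part was not tested.

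Of the 8 genes, 3 overlap another gene on the opposite strand, and sequence decides which of their reads can be assigned. Angptl7 (chromosome 4, 148495183 to 148500460, minus strand, GRCm38) lies wholly inside Mtor, and Angptl2 (chromosome 2, 33216069 to 33247717, plus strand) wholly inside Ralgps1. A read within 1 exon of such a gene also lies within its host, and no source says whether reads were counted by strand. The deposited counts class reads as unique or not, with no definition given. A read across an exon junction matches the spliced transcript only. For Angptl7 and Angptl2, every read classed as unique crossed a junction, so counting did not separate the strands there. Totals and RPKM of these genes may therefore hold only part of their own reads. The coding junctions that mark Angptl7 and Angptl2 RNA are shown 5′ to 3′ from GENCODE M21 transcripts, 15 bases on each side, with the downstream exon in capitals.
Angptl7 junction 1: cgcagacctcggcagATGCCATCTATGACT
Angptl7 junction 2: agccctgagctagagGTGTTCTGTGACATG
Angptl7 junction 3: cgtgtggagctggagGACTGGGAGGGCAAT
Angptl7 junction 4: cacagctccgaaaagGTGGCTACTGGTACA
Angptl2 junction 2: ctgataagccatcagGTCCATGGAGAGACT
Angptl2 junction 3: tgggagacctataagCAAGGGTTTGGGAAC
Angptl2 junction 4: atgatgtctacacagGAAACTGTGCCCACT
Angptl7 spans 4 junctions in 5 exons, from 148499941 to 148498088 at the first to 148496493 to 148496324 at the last.

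Libraries held 19675879 to 22791960 reads assigned to genes. Kidney identity was checked by the 4 thick ascending limb genes, Umod among them, at 5041 to 7678 summed CPM (read counts scaled to library size by TMM), and by the proximal tubule list at 4051 to 5378. The white adipocyte list differed far more (10 of 10 genes higher in immune complex means), at a summed 57.7 and 467.5 CPM in saline 1 and 2 and 1465 and 1114 CPM in immune complex 1 and 2. Lep, the fat hormone leptin, was at 0 reads in saline 1 only. The 6 brown adipocyte genes summed to 20.7, 73.5, 171.5 and 29.0 CPM in the same order. In bulk RNA, fewer cells of a type and less RNA per cell cannot be told apart.

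The length-scaled levels fell into 3 tiers. On the scale of the authors' RPKM, Angptl7 stood first, Lpl second and Cd36 next in every library. That scale divides by the exon length annotated for the gene, so the tiers and the order depend on the annotation. For Lpl this length was 6810 bases, from 18 exons and 4 transcripts, although the Lpl transcript used below for junctions has 10 exons. For Angptl7 it was 2157 bases, from 5 exons and 1 transcript. Angptl7 ranged from 97.3 to 182.7 RPKM, Lpl from 75.3 to 158.6 and Cd36 from 20.2 to 76.4. Vldlr, Angptl4 and Gpihbp1 had means of 11.0, 10.2 and 8.87 RPKM and changed places between libraries. Angptl2 and Angptl6 were lowest on this scale, with means of 1.25 and 0.984 RPKM. Over the 4 libraries the range of Angptl7 overlapped that of Lpl, and that of Lpl barely overlapped that of Cd36, although their order was the same within each library. In the middle and lowest tiers both the ranges overlapped and the order changed.

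**Figure D1:**
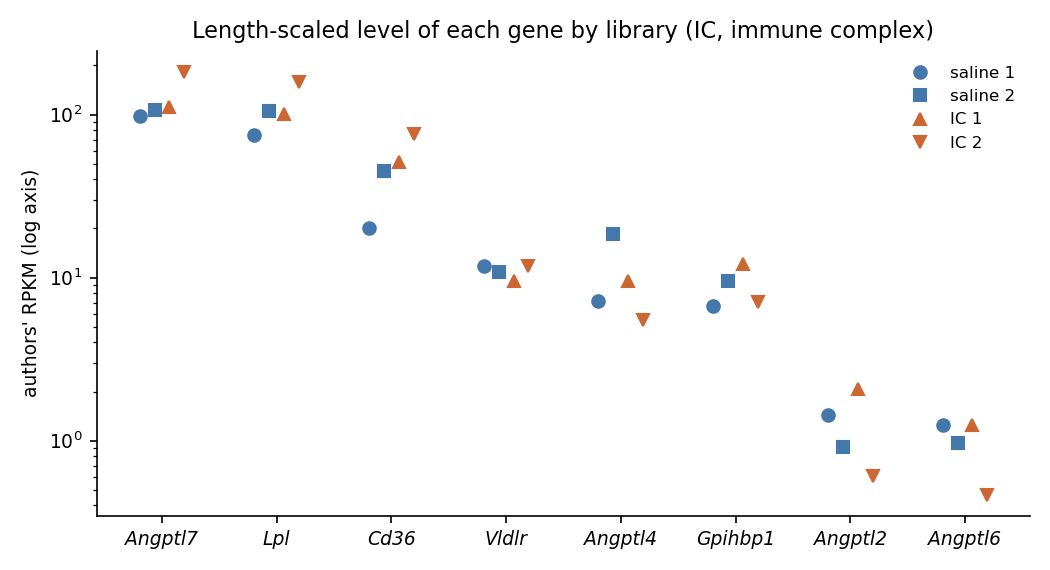
Each point is the RPKM of 1 gene in 1 library on a log axis, with blue for saline and orange for immune complex (IC) and genes ordered by mean. Angptl7, Lpl and Cd36 lie highest, Vldlr, Angptl4 and Gpihbp1 near 10, and Angptl2 and Angptl6 lowest.

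The place of Angptl7 above Lpl did not hold when only spliced reads were counted. Junction reads classed as unique were divided by the transcript's number of junctions and scaled by the library's total gene reads, without TMM. They were 7.88 and 8.11 (saline) and 7.85 and 11.7 (immune complex) for Angptl7. For Lpl, with 9 junctions, they were 8.17, 10.3, 9.33 and 14.1 in the same order. Lpl was thus above Angptl7 in all 4 libraries on that scale. For Cd36, with 14 junctions, the values were 1.75, 3.604, 4.10 and 6.27. The lowest tier did not hold for Angptl2 either. Its values were 0.534, 0.334, 0.768 and 0.357, against 0.407, 0.318, 0.453 and 0.369 for Gpihbp1. Angptl2 was thus below Gpihbp1 in immune complex 2 only, with few reads for both genes. Angptl6 stayed lowest, at 0.041, 0.019, 0.070 and 0.037.

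Lpl (chromosome 8, 68880491 to 68907448, plus strand), the lipase itself, was lowest in saline 1 and highest in immune complex 2. Its reads were 10101 and 15042 (saline) and 15686 and 23442 (immune complex), or 496.9, 711.5, 702.9 and 1108 CPM. Saline 2 and immune complex 1 were nearly equal, and the groups overlapped. Saline libraries averaged 604.2 ± 151.8 CPM and immune complex libraries 905.3 ± 286.3 CPM (SD, n = 2 each). The difference was 0.58 ± 0.29 on the log2 scale (SE, edgeR fit over all genes), and it was 0.35 without saline 1, 0.85 without saline 2, 0.88 without immune complex 1 and 0.22 without immune complex 2. From saline 1 to saline 2 the white adipocyte sum differed between 57.7 and 467.5 CPM and Lpl between 496.9 and 711.5 CPM. Among immune complex libraries Lpl was higher in the library with the lower adipocyte sum. Of Lpl reads, at least 99.9% were classed as unique and at most 0.249% lay in introns.

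Gpihbp1 (chromosome 15, 75596658 to 75598212, plus strand), which carries LPL across endothelium, did not follow Lpl. Its reads were 105, 164, 226 and 124 in saline 1, saline 2, immune complex 1 and immune complex 2, or 5.17, 7.76, 10.1 and 5.86 CPM. Immune complex 2, the library with the most Lpl, was the second lowest for Gpihbp1. The difference was 0.31 ± 0.35 on the log2 scale with overlapping groups, and its sign turned without immune complex 1 (-0.14); it was 0.04 without saline 1, 0.62 without saline 2 and 0.65 without immune complex 2. The ratio of Lpl to Gpihbp1 in RPKM was 11.2 and 11.1 (saline) and 8.28 and 22.3 (immune complex). Of 9 endothelial markers 3 were higher and 6 lower in immune complex means. They summed to 645.1 and 513.7 CPM (saline) and 526.5 and 449.9 CPM (immune complex). The sum was thus lowest in immune complex 2 and highest in saline 1, the library lowest for Gpihbp1. Plvap alone held 231.7 CPM of the saline 1 sum. The part of endothelial RNA in the Gpihbp1 values was not tested.

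Angptl4 (chromosome 17, 33773750 to 33781575, minus strand), the LPL inhibitor, was set apart by a single saline library. Its reads were 474 and 1297 (saline) and 737 and 412 (immune complex), or 23.3, 61.4, 33.0 and 19.5 CPM. Saline 2 was highest, and the other saline library lay between the immune complex libraries. Saline libraries averaged 42.3 ± 26.9 CPM and immune complex libraries 26.2 ± 9.59 CPM (SD, n = 2 each), a difference of -0.69 ± 0.46 on the log2 scale. Without saline 2 the sign turned (0.16), and the difference was -1.23 without saline 1, -1.12 without immune complex 1 and -0.36 without immune complex 2. The ratio of Lpl to Angptl4 in RPKM was 10.4 and 5.69 (saline) and 10.6 and 28.9 (immune complex), so it was lowest in saline 2 and highest in immune complex 2. All Angptl4 reads were classed as unique.

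Pdk4, a PPAR target that restrains pyruvate oxidation in fasting, was also highest in saline 2. It stood at 19.5, 101.2, 41.7 and 29.0 CPM in saline 1, saline 2, immune complex 1 and immune complex 2, and the groups overlapped. Cyp4a14, a fatty acid hydroxylase and another PPAR target, had a different order, at 528.8, 657.3, 641.7 and 797.1 CPM. Both genes were named here after their values were seen.

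Cd36 (chromosome 5, 17781690 to 17888959, minus strand), the fatty acid transporter and scavenger receptor, had the largest difference of the 8. Its reads were 1607 and 3801 (saline) and 4710 and 6632 (immune complex), or 79.1, 179.8, 211.1 and 313.4 CPM. Both immune complex libraries lay above both saline libraries, though saline 2 was much nearer to immune complex 1 than to saline 1. The means were 129.4 ± 71.2 and 262.2 ± 72.4 CPM (SD, n = 2 each), a 2.03-fold ratio and a log2 difference of 1.02 ± 0.40. It was 1.28 without immune complex 1, 0.70 without immune complex 2 and 0.54 without saline 1. Without saline 2 it was 1.72 and passed in edgeR (adjusted p = 0.00801), the sole setting in which a member passed. In that setting 279 of 16948 genes passed (1.65%), against 0 with all libraries. Cd36 and the white adipocyte sum were both lowest in saline 1 and next lowest in saline 2. The brown adipocyte sum was next lowest in immune complex 2. Between the immune complex libraries the order was opposite: Cd36 was higher in immune complex 2, and the white adipocyte sum in immune complex 1 (1465 against 1114 CPM). Cd36 differed 3.96-fold between the highest and lowest library where the white adipocyte sum differed 25.4-fold. Macrophages also make CD36, and 8 of their 8 markers were higher in immune complex means; they summed to 182.7, 200.045, 226.6 and 260.5 CPM in the same library order as Cd36. The part of either cell type in the Cd36 values was not tested.

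A Cd36 promoter is shown because this gene differed most and RefSeq promoters (GRCm38.p6, 250 bases before to 50 after the start) covered it, as they did Angptl2, Angptl6, Angptl7 and Vldlr, 5 of the 8 genes. Capitals mark the GC box GGGCGG, which Sp factors bind, searched on both strands. The window is chr5:17835847-17836146, minus strand; it lies inside the annotated gene, whose 5′ end is at 17888959, and is 1 of several starts, and which of them these kidneys used was not tested.
Cd36 promoter: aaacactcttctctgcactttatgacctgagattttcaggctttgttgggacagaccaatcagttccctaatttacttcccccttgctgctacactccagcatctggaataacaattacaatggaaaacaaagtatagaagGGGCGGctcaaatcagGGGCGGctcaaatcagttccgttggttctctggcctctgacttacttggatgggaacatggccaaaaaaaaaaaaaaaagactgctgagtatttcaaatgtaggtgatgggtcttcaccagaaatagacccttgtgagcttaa
It holds 2 GC boxes whose starts lie 16 bases apart, within a stretch of sequence that repeats. A GC box was found in 35.7% of 32851 promoters of that length. The window also holds 1 CCAAT, a box found in 37.4% of promoters. The direct repeat bound by PPAR with RXR, AGGTCA repeated after 1 free base, was in none of the 6 windows of these 5 genes. It was in 0.0396% of all promoters, too rare for its absence from 6 windows to say anything on PPAR binding. Lpl, Gpihbp1 and Angptl4 had no window. TATAAA was in none of the 6 against 13.6% of all.

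Vldlr (chromosome 19, 27216484 to 27254231, plus strand), which binds triglyceride-rich lipoproteins, varied least. Its reads were 2340 and 2285 (saline) and 2208 and 2567 (immune complex), or 115.1, 108.1, 98.9 and 121.3 CPM. Both immune complex libraries lay outside the saline range, on opposite sides of it. The difference was -0.02 ± 0.18 on the log2 scale, and the highest library exceeded the lowest 1.23-fold. With a single library left out it was between -0.17 and 0.12. The ratio of Cd36 to Vldlr in RPKM was 1.71 and 4.18 (saline) and 5.38 and 6.52 (immune complex).

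**Figure D2:**
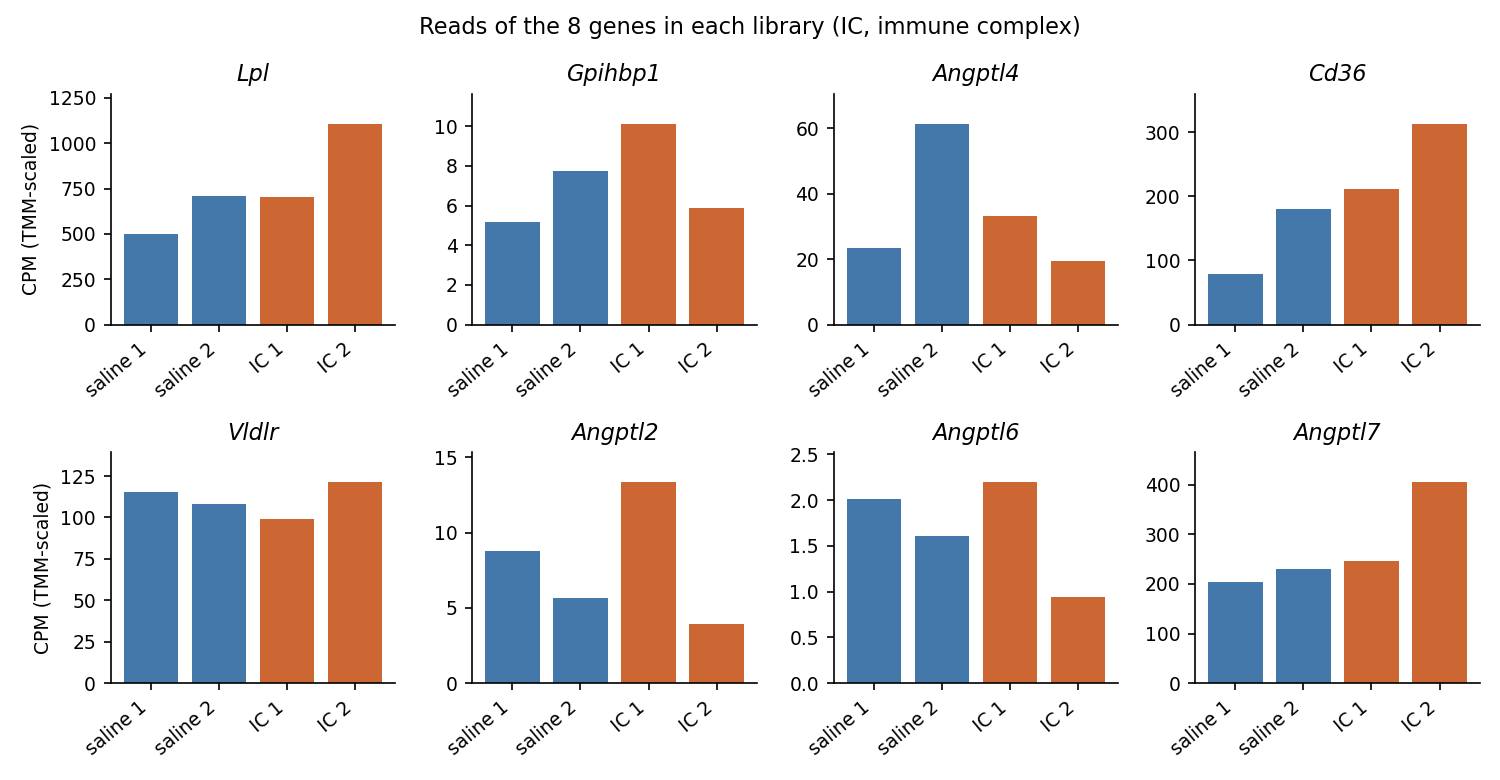
Bars give TMM-scaled CPM of each gene in saline 1, saline 2 and immune complex (IC) 1 and 2, on linear axes from 0 that differ by gene. Lpl, Cd36 and Angptl7 peak in immune complex 2, Angptl4 in saline 2, and Gpihbp1, Angptl2 and Angptl6 in immune complex 1.

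Angptl7, best known from the cornea and the drainage tissue of the eye, was read at high level in kidney. Its total reads were 4141 and 4855 (saline) and 5493 and 8575 (immune complex), or 203.7, 229.7, 246.1 and 405.2 CPM. The immune complex libraries lay above the saline libraries, the first of them narrowly. The log2 difference was 0.59 ± 0.26, and it was 0.18 without immune complex 2, 0.50 without saline 1, 0.67 without saline 2 and 0.90 without immune complex 1. Only 11.9% to 14.97% of these reads were classed as unique, and every such read crossed an exon junction. The class that is not unique includes reads that also lie within Mtor. There were 620 and 680 of them (saline) and 716 and 1017 (immune complex). Scaled by TMM, reads classed as unique were 36.2 and 38.3 CPM (saline) and 38.3 and 57.0 CPM (immune complex). On those reads the groups overlapped (38.26 CPM in saline 2 against 38.25 CPM in immune complex 1), and the log2 difference was 0.35 ± 0.23.

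Mtor, the growth kinase, also held many intron reads not classed as unique. Angptl7 had 3521, 4175, 4777 and 7558 reads not classed as unique in saline 1, saline 2, immune complex 1 and immune complex 2. Mtor had 3010, 3804, 3854 and 4794 intron reads not classed as unique, against 85, 116, 156 and 131 intron reads that were. No other gene with reads overlaps Mtor in GENCODE M21. Angptl7 therefore held 57.9%, 56.1%, 58.8% and 64.1% of its own reads and those Mtor intron reads together. That sum was 7151, 8659, 9347 and 13369 reads, not scaled to library size. Exon reads of Mtor were 2354, 2691, 2578 and 2862, all classed as unique.

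Angptl2, an inflammation-linked member of the family, had few reads and no direction that held. It had 179 and 120 reads (saline) and 298 and 83 (immune complex), or 8.81, 5.68, 13.4 and 3.92 CPM. The immune complex libraries were the highest and the lowest of the 4. The difference was 0.26 ± 0.55 on the log2 scale, and it was -0.88 without immune complex 1, 0.88 without immune complex 2, 0.60 without saline 1 and -0.04 without saline 2. Reads classed as unique were 42, 28, 70 and 31. Its host Ralgps1 had 660, 823, 991 and 528 intron reads not classed as unique, several times those of Angptl2. Angptl2 held 21.3%, 12.7%, 23.1% and 13.6% of its own reads and those Ralgps1 intron reads together.

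Angptl6 (chromosome 9, 20873809 to 20879727, minus strand), a growth factor of the liver that counters weight gain in mice, was the scarcest. It had 41, 34, 49 and 20 reads, or 2.02, 1.61, 2.20 and 0.945 CPM. The groups overlapped, with immune complex 2 lowest, and the difference was -0.20 ± 0.48 on the log2 scale. It was -0.93 without immune complex 1, 0.28 without immune complex 2, -0.03 without saline 1 and -0.37 without saline 2. Its end shares 499 bases with A230050P20Rik on the other strand, and 58.8% to 70.7% of its reads were classed as unique. Angptl1 had 0 reads in each saline library and 1 in each immune complex library. Angptl8, a further inhibitor of LPL activity, stood at 1.28, 1.47, 3.14 and 0.992 CPM.

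**Figure D3:**
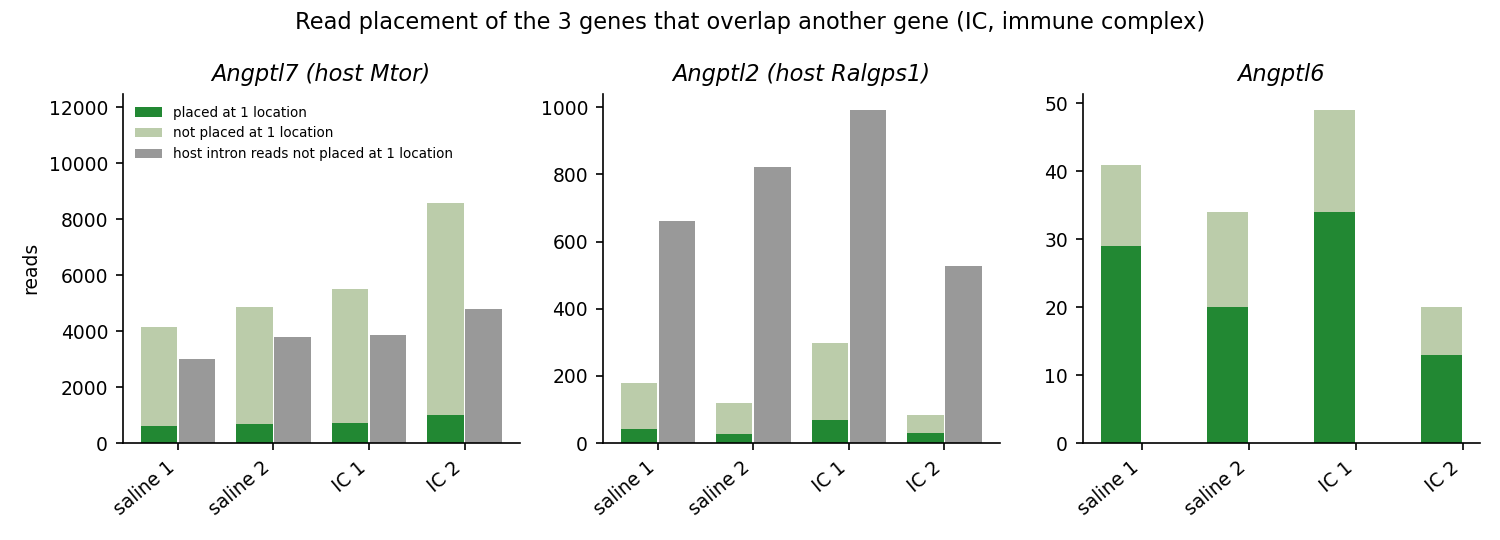
Green bars give Angptl7, Angptl2 and Angptl6 reads in each library, dark where classed as unique (legend: placed at 1 location) and pale where not. Grey bars give the host's intron reads not classed as unique (IC, immune complex). Angptl6 has no host. For Angptl7 the pale part, 3521 to 7558 reads, is several times the dark part and exceeds the grey bar in every library, most in immune complex 2 (7558 against 4794).

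Across the 8 genes, 5 had a higher and 3 a lower mean after immune complexes, with a median log2 difference of 0.28. Over all genes tested the median was 0.01. On total reads, groups did not overlap for 2 of the 8, Cd36 and Angptl7, both higher. Of all genes, 15.4% did not overlap in that direction and 14.6% in the other (30% in all). On reads classed as unique the Angptl7 groups overlapped, and those of Cd36 did not. No gene passed Benjamini-Hochberg adjustment at 0.05 in edgeR's quasi-likelihood test in either direction (0 of 16334, 0%). An unadjusted p under 0.05 was found for 749 genes (4.59%), limma-voom called 0, and DESeq2 called 96 (0.604%). The authors' deposited table calls 80 of its 16128 genes (0.496%), and 0 of the 8 are among them. In the authors' deposited table Cd36 has the lowest adjusted p of the 8, at 0.287.

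**Figure D4:**
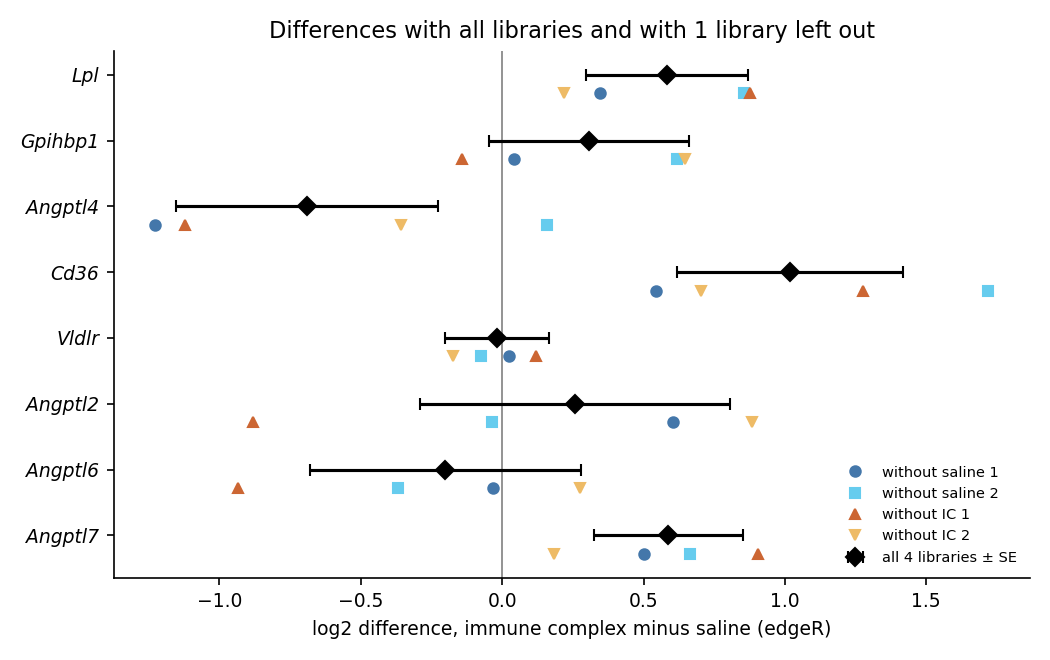
Black diamonds give the edgeR log2 difference, immune complex minus saline, with its SE, and coloured marks below them the value with a single library left out. Lpl, Cd36 and Angptl7 stay above 0 in all cases, whereas marks of the other 5 genes fall on both sides of 0.

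The genes did not share 1 profile. Likeness was measured as the Euclidean distance between log2 CPM profiles over the 4 libraries, each centred on its own mean. The closest pair was Lpl and Angptl7 at 0.25, followed by Angptl2 and Angptl6 at 0.59. Lpl and its inhibitor Angptl4 were 1.64 apart, Lpl and Gpihbp1 1.06, and the farthest pair, Cd36 and Angptl2, 2.34. Among 13904 other genes, 730 lay within 0.5 of Lpl and 1438 within 0.5 of Angptl7, so profiles like theirs were common. Fewer lay that near to Angptl4 (14), Angptl2 (28) and Cd36 (34). These 3 genes also varied most, with log2 ranges of 1.65, 1.74 and 1.99. Lpl and Angptl7 ranged over 1.16 and 0.99, and Vldlr, with a range of 0.29, had 8222 genes within the limit. A fixed distance limit takes in fewer genes where a profile is wide, so these counts do not measure how rare a profile's shape was. The nearest to Angptl4 were Vsig2 (0.19), Drd3 (0.22) and Hist1h1d (0.29), with Hdc, the histamine-forming enzyme, at 0.37 and 13.2, 35.3, 15.1 and 12.7 CPM. Nearest to Cd36 were Cd33 (0.19), Itgam (0.21), Dcn (0.26), Lgals12 (0.29) and Rian (0.31). Lpl was nearest to Osr1 (0.08), Cenpq (0.10) and Zdhhc2 (0.11), and Angptl7 to Entpd1 (0.06), Serpinb8 (0.07) and Grm5 (0.07). Several of these stand under 1 CPM, where the added count of 2 flattens a profile.

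**Figure D5:**
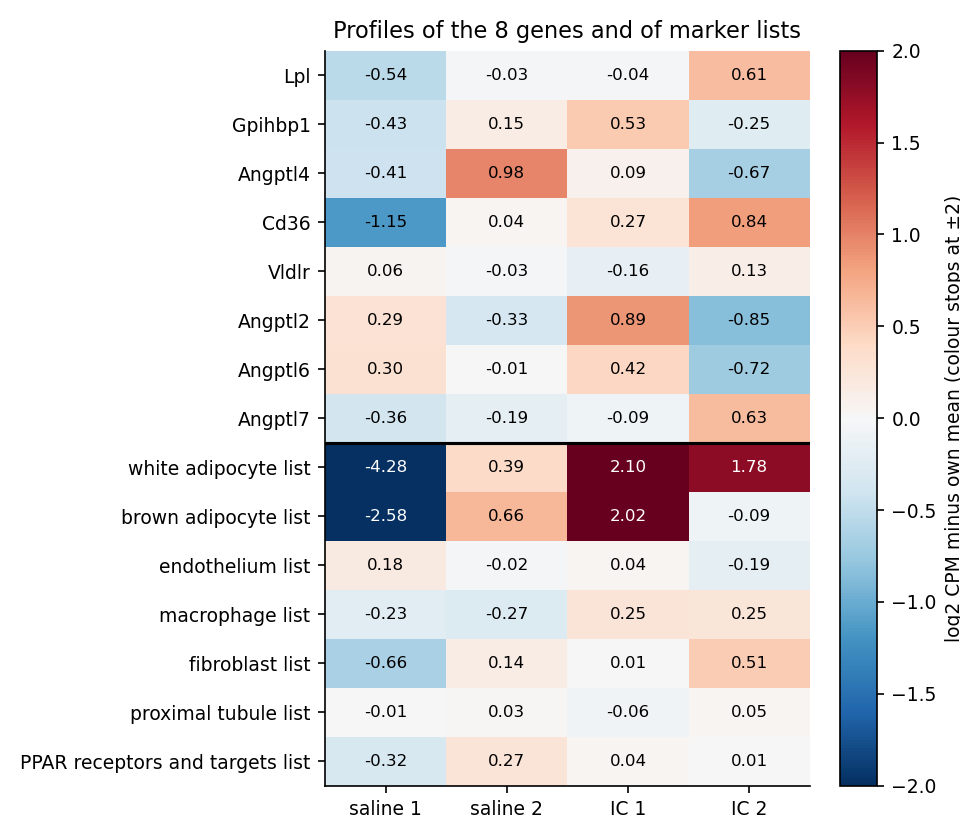
Each cell gives log2 CPM minus the row's own mean over the 4 libraries, for the 8 genes above the line and for the mean of marker and target lists below it (IC, immune complex). The white adipocyte list spans -4.28 to 2.10, wider than any of the 8 genes, of which Cd36 spans -1.15 to 0.84.

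Other genes of LPL biology were counted from 4 lists of 65 genes, 61 of them tested. In edgeR 0 of the 61 passed over all genes, 34 were higher and 27 lower in mean, and the median log2 difference was 0.07. Groups did not overlap for 15 genes that were higher and 10 that were lower, against the 15.4% and 14.6% of all genes. DESeq2 called 1 gene of these lists, and limma-voom called 0.

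Of genes that mature, carry or steer LPL, 7 were higher and 8 lower (median -0.02, 0 of 15 passed). Sdc1, a heparan sulfate proteoglycan that can bind lipoproteins, stood at 17.2, 22.3, 11.7 and 13.4 CPM (log2 difference -0.66 ± 0.22). Hspg2, the basement membrane proteoglycan perlecan, stood at 139.7, 81.4, 70.5 and 48.6 CPM (-0.89 ± 0.31). In both, the immune complex libraries lay below the saline libraries. Neither passed in edgeR (adjusted p = 0.965 and 0.974). The LPL chaperone Lmf1 stood at 38.1, 40.1, 40.2 and 28.4 CPM, with overlapping groups.

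Of receptors and fatty acid uptake genes, 9 were higher and 8 lower (median 0.04, 0 of 17 passed). Lsr, a lipoprotein receptor that is also a junction protein, stood at 53.0, 44.3, 35.7 and 35.1 CPM, and Sorl1, a sorting receptor that binds lipoproteins, at 259.9, 161.4, 106.7 and 149.9 CPM. Fabp5, which carries fatty acids within cells, had 3.79, 5.11, 7.26 and 6.47 CPM. Their groups did not overlap, and none passed in edgeR (adjusted p = 0.99997 for each).

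Of PPAR receptors and targets, 12 were higher and 9 lower (median 0.12, 0 of 21 passed). Creb3l3, a liver and gut transcription factor that raises LPL activators, stood at 1.77, 3.07, 0.762 and 0.945 CPM (log2 difference -1.502 ± 0.43; edgeR adjusted p = 0.868). Pparg, the adipocyte receptor, stood at 2.07, 6.15, 13.2 and 6.66 CPM, and Acot2, a mitochondrial thioesterase, at 39.4, 59.5, 37.0 and 32.2 CPM. Pdk4 passed in edgeR without saline 1 (log2 difference -1.52, adjusted p = 0.0309), a setting in which 47 of 16999 genes passed (0.276%).

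Of other lipases and genes of lipid droplet hydrolysis, 6 were higher and 2 lower (median 0.30, 0 of 8 passed). The lower ones were Lipc, hepatic lipase, and Lipa, lysosomal acid lipase, and the list also holds Abhd5 and G0s2, which regulate a lipase. Pnpla2, the first lipase of stored triglyceride, stood at 113.2, 170.0, 281.7 and 178.8 CPM, Lipe, hormone-sensitive lipase, at 20.7, 49.2, 100.1 and 50.1 CPM, and Pnpla3 at 0.738, 9.37, 28.0 and 9.40 CPM. Each was lowest in saline 1 and highest in immune complex 1, the libraries with the lowest and highest sums of both the white and the brown adipocyte lists. Between saline 2 and immune complex 2 each of these genes was nearly equal, whereas the white adipocyte sum was 467.5 and 1114 CPM. Adipocytes express all 3 genes, and the part of adipocyte RNA in them was not tested. Without saline 2, Lipe, Pnpla3, Pparg and Ucp3 passed in edgeR, with log2 differences of 1.85, 4.64, 2.25 and 2.66, among the 279 of 16948 genes (1.65%) that passed in that setting.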

How the data were processed

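Per the labels' protocols, kidney pieces were stored frozen in RNAlater, and a company extracted the RNA and made Illumina libraries. STAR 2.5.2b, DESeq2 and GRCm38 appear, without roles, in the submitters' processing notes; no source used here gives the counter, annotation release or strand setting. Per the file headers, the authors deposited raw read counts per gene by class (total, unique, exon, junction, intron) and RPKM. In a check on the files, RPKM followed from exon reads, exon length and library total for most genes. The authors' deposited table gives log2 fold changes, p-values, adjusted p-values and a mean normalised signal; it divides saline by immune complex, as the sign opposed the read ratio for all 80 genes called.

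Total gene reads of the 4 libraries entered the quasi-likelihood test of edgeR 4.0.16 (R 4.3.3) after filterByExpr and TMM scaling, with no block, two-sided, adjusted by Benjamini-Hochberg over 16334 genes. SE is the difference divided by the square root of F. Log2 CPM used a prior count of 2. Alternatives used limma 3.58.1 and DESeq2 1.42.0. Replicates differed beyond counting noise (chi-square per degree of freedom 18.2 and 61.2). Scripts were tested on simulated data. Members and lists were chosen with earlier results of these data known. All 122 list entries were found, 3 under another symbol. Named list genes are the 3 with the lowest p per list, and others stand where a sentence needed them; a few further genes that this rule takes were counted but are not reported here.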

Additional observations from a re-analysis of the deposited data

How the results depend on the processing

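Of 103 values of the 8 genes under 13 alternatives, 94 kept their direction and their side of the threshold, 8 turned sign and 1 (Cd36 without saline 2) came to pass. Vldlr turned with exon reads (0.0049), and with single libraries left out it ranged from -0.17 to 0.12. On leaving out single libraries Gpihbp1 ranged from -0.14 to 0.65, Angptl4 from -1.23 to 0.16, Angptl2 from -0.88 to 0.88 and Angptl6 from -0.93 to 0.28; Lpl (0.22 to 0.88), Cd36 (0.54 to 1.72) and Angptl7 (0.18 to 0.90) kept their sign. The lone library of an arm was then assumed to vary like the others. The count of genes called, 0 with all libraries, was 2 without a filter, 96 with DESeq2, 1 on reads placed at 1 location, and 0 to 279 with a library left out. Of the pathway lists it was 1 with DESeq2 and 0 to 4 with a library left out. The cause was not tested. With the replicate number as a block, 55 genes and 1 list gene were called; same-numbered libraries did not deviate together (correlation -0.13). With crossed numbers, an alternative chosen after seeing the data as were junction reads, 160 genes and 3 list genes were called. With 2 libraries a group, and 20 to 49 reads for Angptl6, smaller differences were not detectable. Angptl6 had too few junction reads to be fitted.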
